A study of Mus musculus with 2 samples.

Results

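Hepatocytes rich in transcripts of the clock genes Dbp and Per3 were examined in livers of mice treated with carbon tetrachloride (CCl4). A hepatocyte was a cell with 20000 to 60000 unique molecular identifiers (UMIs, counted RNA molecules), 2000 to 10000 genes, at most 5% mitochondrial UMIs and at most 2 UMIs of Ptprc, Pecam1 and Dcn together. A Dbp/Per3-high hepatocyte (a member in the plots) had at least 5 UMIs of Dbp and Per3 together, and it was set against hepatocytes of the same library with 0 or 1 such UMI, called comparison cells. The rule found 660 members among 14964 hepatocytes, out of 39559 barcodes in the files. Of these, 118 were among 8444 hepatocytes of the Tom- library and 542 were among 6520 hepatocytes of the Tom+ library.

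Both libraries came from the livers of male p16-Tom mice that received CCl4 for 4 weeks and tamoxifen. These mice carry a tamoxifen-dependent Cre recombinase driven by the p16Ink4a gene together with a Cre-dependent tdTomato reporter, so cells that transcribe the gene when tamoxifen is given stay labelled. The tissue was fixed before dissociation, and cells stained by a mitochondrial and a nuclear dye were sorted into a reporter-negative (p16low, Tom-) and a reporter-positive (p16high, Tom+) fraction. Each fraction gave 1 library, so no comparison below has a replicate, no test was made, and every interval (95%, in parentheses) covers counting error only. Neither the number of mice behind a library nor the hour of harvest is given in the sources used here, and no vehicle-treated library was analysed here.

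Dbp and Per3 belong to the circadian clock, a feedback loop in which the activators Arntl (BMAL1), Clock and Npas2 bind E-box sequences and switch on their own repressors of the Per, Cry, Nr1d, Ciart and Bhlhe families. Dbp, Tef and Hlf are related transcription factors that bind D-box sequences and carry the rhythm to liver enzymes, and Nfil3 represses through the same sequence. The ROR and NR1D receptors act in opposite directions on ROR elements, among others that of Arntl. In the liver the clock is set by feeding and by signals from the brain, and it times the metabolism of glucose, lipids, bile acids and foreign compounds.

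The sequences that link these genes are shown first. RefSeq windows from 250 bases before to 50 after each gene start (GRCm38.p6, which is mm10) were searched on both strands for the E-box CACGTG, the D-box TTATGNAA and the ROR element, which do not overlap as letter strings. The 250 bases before the start of Ciart (chr3:95882229-95882478, minus strand) hold 3 E-boxes, and those before Per3 (chr4:151044666-151044915, minus strand) hold 2 D-boxes. Motifs are in capitals, and every sequence runs 5′ to 3′ on the strand of its gene.
Ciart upstream: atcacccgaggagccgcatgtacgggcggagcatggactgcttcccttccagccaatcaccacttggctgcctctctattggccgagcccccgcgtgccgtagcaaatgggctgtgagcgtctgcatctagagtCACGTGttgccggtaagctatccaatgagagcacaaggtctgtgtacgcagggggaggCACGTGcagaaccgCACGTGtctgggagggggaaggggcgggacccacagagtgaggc
Per3 upstream: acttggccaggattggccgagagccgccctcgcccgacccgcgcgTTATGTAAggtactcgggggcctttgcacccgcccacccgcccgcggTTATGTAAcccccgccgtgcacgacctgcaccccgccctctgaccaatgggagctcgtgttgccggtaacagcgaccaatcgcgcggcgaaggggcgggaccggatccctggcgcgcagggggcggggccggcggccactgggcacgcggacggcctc
Stretches of 30 bases around a motif follow for other genes described below, at chr15:81802534-81802563 and chr15:81811264-81811293 for the first and second Tef start, chr6:145865556-145865585 for Bhlhe41, chr11:69098771-69098800 for Per1, chr10:85185097-85185126 for Cry1 and chr7:113207528-113207557 for Arntl.
Tef, first start, E-box: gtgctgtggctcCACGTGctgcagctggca
Tef, second start, E-box: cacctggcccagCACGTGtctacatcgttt
Bhlhe41, E-box: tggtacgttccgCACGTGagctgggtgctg
Per1, E-box: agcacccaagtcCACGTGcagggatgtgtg
Cry1, E-box: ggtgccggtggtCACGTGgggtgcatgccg
Arntl, ROR element: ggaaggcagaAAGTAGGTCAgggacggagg
Of 9 clock repressors other than Per3, 7 had a window and 4 held an E-box (Per1, Cry1, Ciart and Bhlhe41), against 8.09% of 27025 genes with a window. The 5 activators described here had a window, none held an E-box and Arntl held the ROR element, which 0.259% of genes hold. Tef was the single E-box gene among the 3 other output factors. A D-box is in the window of 3.99% of genes, and besides Per3 it was found in that of Per1. The Dbp window held none of these motifs, and a motif match is a description of letters only.

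Dbp (chr7:45705088-45710203, plus strand) and Per3 (chr4:151003652-151044665, minus strand) are the genes whose UMIs the cells were chosen by, so their levels are a description. In CPM (a gene's UMIs over all UMIs of the summed cells, rescaled to the customary common total), Dbp was at 95.3 in the Tom- and 149 in the Tom+ members and Per3 at 64.5 and 90.6, whereas the comparison cells had 3.21 and 3.45 for Dbp and 6.84 and 6.81 for Per3. The median member carried 4 Dbp and 2 Per3 UMIs in the Tom- library and 5 and 3 in the Tom+ library, and the highest cell had 18 and 45 UMIs of the pair. Both genes were present in 94.9% of Tom- members (112 of 118) and 92.3% of Tom+ members (500 of 542). Per3 was missing in 4 and 27 members and Dbp in 2 and 15.

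Members made up 1.40% (1.16 to 1.67) of the hepatocytes in the Tom- library and 8.31% (7.65 to 9.01) of those in the Tom+ library. The libraries differed most in the tail of the distribution. Cells with 1 UMI of the pair numbered 2374 and 1679, cells with 5 numbered 52 and 127, and cells with 10 or more numbered 10 (0.118%) and 185 (2.84%). The variance of the UMI sum over hepatocytes was 1.78 times its mean in the Tom- and 5.80 times its mean in the Tom+ library. Because the rule counts UMIs, it selects deep cells, and the median member had 41460 and 38826 UMIs against 32410 and 33703 in comparison cells. With every cell thinned to 20000 UMIs the shares were 0.367% (0.250 to 0.521) and 3.97% (3.51 to 4.48), and the variance was 1.43 and 3.60 times the mean. The libraries were single samples, so their animals, sort gate and preparation cannot be told apart from the reporter state.

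**Figure D1:**
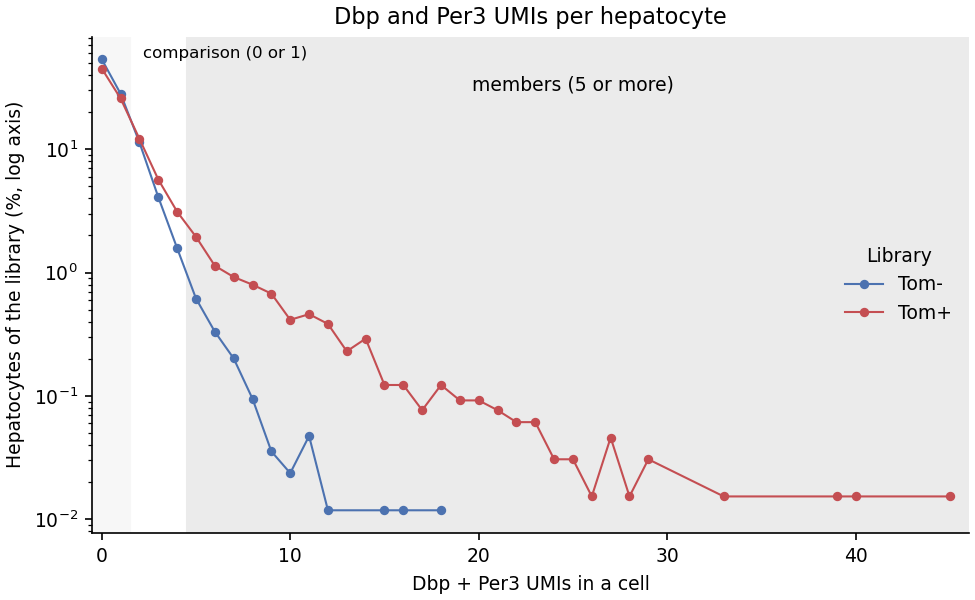
Share of hepatocytes of each library (percent, log axis) at each number of Dbp and Per3 UMIs per cell, with the member and comparison ranges shaded and no point where no cell had that number. At 0 UMIs lie 53.5% of Tom- and 45.03% of Tom+ hepatocytes, and the curves part most above 2 UMIs, where the Tom+ library holds 185 cells with 10 or more UMIs and the Tom- library 10.

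The members carried the hepatocyte programme. Albumin (Alb) was at 106800 CPM in Tom- members and 92560 in Tom+ members against 119100 and 110100 in comparison cells, and none of 9 hepatocyte markers was 1.5-fold higher or lower in either library. Their median log2 ratio of members to comparison cells was -0.10 in the Tom- and -0.23 in the Tom+ library. For all genes it was 0.10 and 0.14, so these markers lay somewhat lower in members. Markers of other cell types were summed as lists. Endothelial markers stood at 165 CPM in Tom- members and 152 in their comparison cells, and at 94.7 and 107 in the Tom+ library, with none of 14 at 0 in members. Macrophage and immune markers were at 271 and 357, and at 274 and 270, with 3 of 16 at 0 in Tom- members. Stellate and matrix markers were at 48.4 and 56.1, and at 63.0 and 54.9, and of 14 only Acta2, a marker of activated stellate cells, was at 0 in members of both libraries.

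Bile duct markers were the exception. At least 3 UMIs of Krt7, Krt19 and Epcam, which mark the duct epithelium, were found in 3 of 118 Tom- members (2.54%, 0.527 to 7.25) and in 5 of 6891 comparison cells (0.0726%), and in 1 of 542 Tom+ members (0.185%) and 2 of 4615 comparison cells (0.0433%). The 8 cholangiocyte markers summed to 43.6 CPM in Tom- members against 22.3, and to 32.2 against 18.3 in the Tom+ library. Without those cells the sums were 27.7 against 22.1 and 19.1 against 18.0. The Tom+ cell carried 130 Krt19, 53 Epcam, 1057 Dmbt1 and 1162 Alb UMIs, with 12 Dbp and 10 Per3 UMIs among 52695. Whether these are mixed barcodes or duct cells was not tested. Across both libraries 503 barcodes were shared, 4 Tom- and 11 Tom+ members had such a barcode, and none shared it with another member.

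All genes other than Dbp and Per3 were then compared between members and comparison cells by the log2 ratio of summed CPM. Genes that reached 10 CPM in members or in comparison cells, and 20 UMIs over both, were compared, and a ratio of 1.5-fold was used to count them. In the Tom- library 91 of 7946 genes (1.15%) were higher in members and 19 (0.239%) were lower. In the Tom+ library 141 of 8053 genes (1.75%) were higher and 31 (0.385%) were lower. At 2-fold the numbers were 7 and 2 in the Tom- and 29 and 12 in the Tom+ library. The median log2 ratio of all genes was 0.10 and 0.14, and median-of-ratios scaling, which removes this shift, gave 43 higher and 42 lower genes in the Tom- library and 66 and 57 in the Tom+ library. Few genes thus differed by this measure, and of the clock genes some were among them and others were not.

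Clock repressors past 1.5-fold were few in the Tom- and more in the Tom+ library. Of 9 repressors other than Per3, 7 passed the minimum level, and 1 of them was at least 1.5-fold higher in the Tom- and 4 in the Tom+ library, with none lower, beside 1.15% and 1.75% of all genes. Under median-of-ratios scaling Per2 (1.33) and Nr1d2 (0.68) were past 1.5-fold in the Tom+ library and Cry2 and Bhlhe40 (0.58 each) lay just under it. The median log2 ratio of the 7 repressors was 0.56 in the Tom- and 0.71 in the Tom+ library, beside 0.10 and 0.14 for all genes. These genes belong to the same feedback loop as the genes of the rule, so the list is described and nothing particular to it is drawn from the count.

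Per2 (chr1:91415982-91459324), a partner of the CRY proteins in repression, had the largest ratio of the compared repressors. It was at 55.7 CPM in Tom- members and 23.9 in their comparison cells, a log2 ratio of 1.22 (1.04 to 1.40), and at 60.4 and 21.9 among Tom+ cells, a log2 ratio of 1.47 (1.37 to 1.56). At 20000 UMIs per cell, 63.6% of Tom- members and 34.8% of comparison cells held a Per2 UMI, and 62.7% and 32.0% did in the Tom+ library. Without thinning these shares were 77.1% and 48.9%, and 79.5% and 45.8%. Most cell types express clock genes, so no cell type without them gave a background.

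Per1 was at 199.9 and 147.5 CPM among Tom- cells, a log2 ratio of 0.44 (0.34 to 0.53), and at 159 and 119 in the Tom+ library, a ratio of 0.42 (0.37 to 0.47). Cry2, one of the CRY repressors, was at 68.5 and 46.2 CPM, a ratio of 0.57 (0.40 to 0.73), and at 65.9 and 40.2 CPM, a ratio of 0.71 (0.63 to 0.80). Cry1, its relative, stood apart. It was measured at 15.3 and 16.3 CPM in the Tom- library, a ratio of -0.09 (-0.45 to 0.24), and 11.2 and 13.1 CPM in the Tom+ library, a ratio of -0.22 (-0.42 to -0.03).

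Of the nuclear receptors that repress Arntl, Nr1d2 was past 1.5-fold in the Tom+ library and neither was in the Tom- library. Nr1d1 (REV-ERBα) was at 171.8 CPM in Tom- members and 116 in comparison cells, a log2 ratio of 0.57 (0.46 to 0.67), and at 151.5 and 116 in the Tom+ library, a ratio of 0.38 (0.33 to 0.44). At 20000 UMIs a cell, an Nr1d1 UMI was in 95.8% of Tom- members and 87.8% of comparison cells and in 87.5% and 86.1% in the Tom+ library. Nr1d2 (REV-ERBβ) was at 128 and 86.7 CPM, a ratio of 0.56 (0.44 to 0.68), and at 144 and 81.7 CPM, a ratio of 0.82 (0.76 to 0.88). The receptors thus had like ratios in the Tom- library, and Nr1d2 had the larger ratio in the Tom+ library. Bhlhe40 (DEC1), which competes for E-boxes, was at 214 and 147 CPM, a ratio of 0.54 (0.45 to 0.63), and at 174 and 105.5 CPM, a ratio of 0.72 (0.67 to 0.77).

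Ciart and Bhlhe41 lay under the minimum level and are given as counts. Ciart (CHRONO), which binds BMAL1, had 24 UMIs in 118 Tom- members and 125 in 542 Tom+ members, 5.03 and 5.86 CPM against 1.64 and 1.498 in comparison cells, log2 ratios of 1.61 (0.95 to 2.21) and 1.97 (1.65 to 2.29). Bhlhe41 (DEC2) had 20 and 103 UMIs, 4.19 and 4.83 CPM against 1.90 and 1.38, log2 ratios of 1.14 (0.42 to 1.79) and 1.80 (1.46 to 2.15). Both were thus low genes with intervals above 0 in both libraries. A Ciart UMI was found at 20000 UMIs in 12.7% of Tom- members and 3.09% of comparison cells, and in 10.5% and 2.88% in the Tom+ library.

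**Figure D2:**
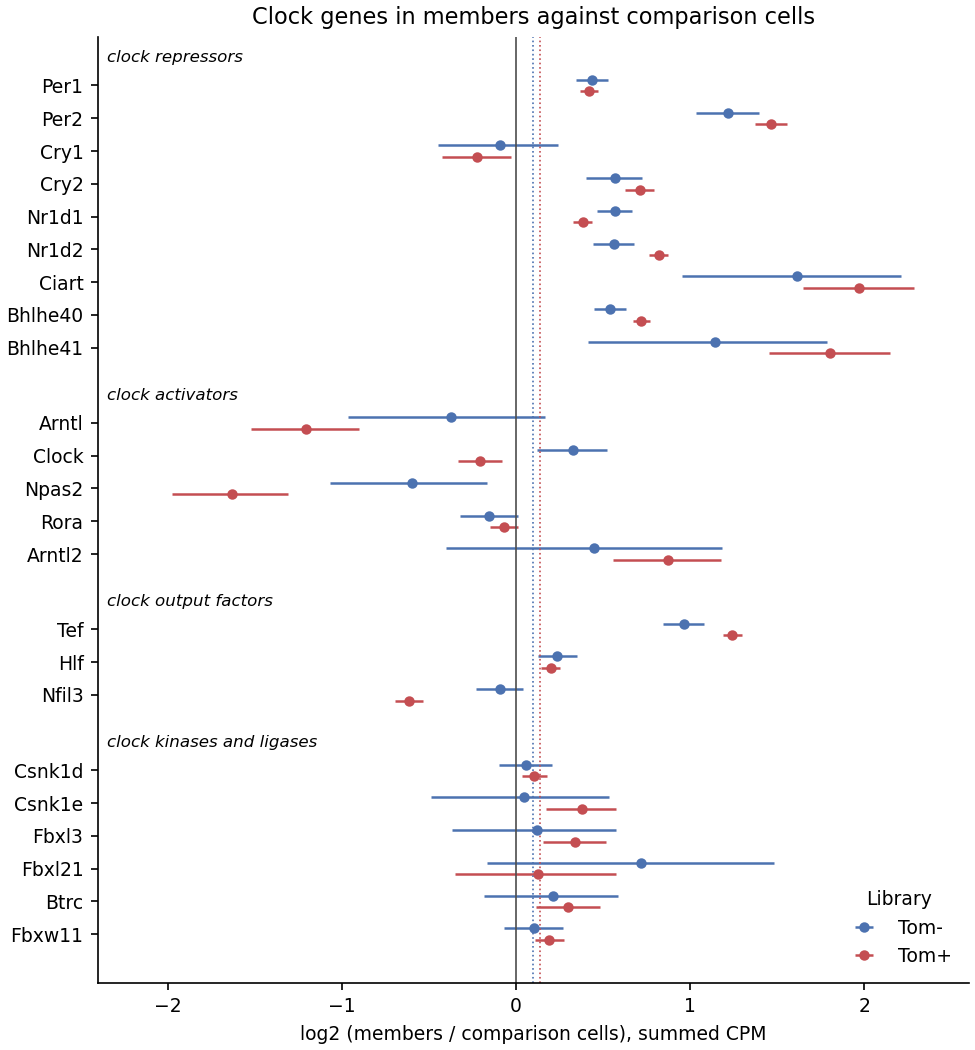
Log2 ratio of summed CPM, members over comparison cells, for clock genes other than Dbp and Per3, in the Tom- (blue) and Tom+ (red) library, with 95% counting intervals as bars and the median of all genes as dotted lines. Repressors other than Cry1 lie to the right of 0, Per2 at 1.22 and 1.47, while Cry1 lies at -0.09 and -0.22 and Npas2 at -0.60 and -1.63.

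The 5 activators described here differed in direction, and of those that passed the minimum level Npas2 was past 1.5-fold, and lower, in the Tom+ library. Npas2, a partner of BMAL1 related to Clock, was at 9.01 CPM in Tom- members and 13.6 in comparison cells, a log2 ratio of -0.60 (-1.07 to -0.16). In Tom+ cells it was at 3.71 and 11.5 CPM, a ratio of -1.63 (-1.98 to -1.31). At 20000 UMIs an Npas2 UMI was present in 16.1% (9.98 to 24.0) of Tom- members and 23.5% (22.5 to 24.6) of comparison cells. These Tom- intervals overlapped, and in the Tom+ library the shares were 7.56% and 19.5%. Arntl, under the minimum in both libraries, had the same direction, at 5.87 and 7.59 CPM with a ratio of -0.37 (-0.96 to 0.17) and at 4.32 and 9.94 CPM with a ratio of -1.20 (-1.52 to -0.90). At 20000 UMIs an Arntl UMI was present in 15.3% of Tom- members and 14.8% of comparison cells and in 9.41% and 18.2% in the Tom+ library. Without thinning these shares were 22.0% and 22.3%, and 15.3% and 28.8%. A lower level of Arntl was therefore not shown in the Tom- library.

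Clock, the constant partner of BMAL1, had opposite signs, at 44.0 and 35.1 CPM (0.33, 0.12 to 0.52) in the Tom- and 27.2 and 31.4 CPM (-0.21, -0.33 to -0.08) in the Tom+ library. Rora, a receptor that activates through ROR elements, was near the comparison cells, with log2 ratios of -0.15 (-0.32 to 0.01) and -0.07 (-0.15 to 0.01). Arntl2, a relative of Arntl, was low, at 3.14 and 2.31 CPM and at 5.16 and 2.82 CPM.

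The output factors divided. Tef (chr15:81802421-81826863), a close relative of Dbp, was at 124 CPM in Tom- members and 63.6 in comparison cells, a log2 ratio of 0.96 (0.84 to 1.08), and at 169 and 71.3 in the Tom+ library, a ratio of 1.24 (1.19 to 1.296). Its UMIs were spread widely, and at 20000 UMIs a Tef UMI was in 87.3% of Tom- members and 69.9% of comparison cells, and in 94.1% and 72.9% in the Tom+ library. Hlf, the other relative, was near the median of all genes, with 0.24 (0.12 to 0.35) and 0.20 (0.15 to 0.25). Nfil3, the opposing repressor, was at 96.6 and 103 CPM, a ratio of -0.09 (-0.23 to 0.04), and at 65.9 and 101 CPM, a ratio of -0.61 (-0.69 to -0.53).

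The kinases and ubiquitin ligases that set the stability of PER and CRY proteins were few. Of 6, 3 were compared in the Tom- and 5 in the Tom+ library, with none past 1.5-fold. Over all genes, 1.15% and 1.75% were higher and 0.239% and 0.385% lower, so nothing is drawn from this count. Their medians were 0.11 and 0.30, beside 0.10 and 0.14 for all genes. Csnk1d was at 0.06 (-0.10 to 0.21) and 0.11 (0.04 to 0.18), and Csnk1e at 0.05 (-0.49 to 0.53) and 0.38 (0.18 to 0.58).

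Levels were next followed over cells with increasing Dbp and Per3 UMIs, including the 1435 Tom- and 1363 Tom+ cells with 2 to 4 UMIs that belong to neither group. Per2 went from 23.0 CPM in Tom- cells with 0 UMIs to 42.2 at 4, 45.1 at 5 and 65.8 at 10 or more, and from 20.7 to 38.5, 43.3 and 80.6 in the Tom+ library. The values at 4 and 5 UMIs are those just outside and just inside the rule, and for Per2 they lay close together. Tef was at 61.1, 91.1, 123 and 122 CPM in the same Tom- cells and at 66.9, 119, 129 and 219 CPM in the Tom+ cells. Slc12a4, a potassium chloride cotransporter, stayed between 12.6 and 19.7 CPM up to 5 UMIs in the Tom+ library and reached 47.5 CPM at 10 or more.

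Genes that were lower in members differed in their course. Npas2 was at 13.9 CPM in Tom- cells with 0 UMIs and 2.44 at 10 or more, and at 12.1 and 2.17 in the Tom+ library. Cdkn1a was at 94.3 CPM at 0, 60.4 at 4, 55.1 at 5 and 35.1 at 10 or more in the Tom+ library, but at 106, 93.8, 77.5 and 105 in the Tom- library. Ndrg1 was at 16.9 CPM (14.2 to 20.1) at 4 and 7.68 (5.46 to 10.5) at 5 UMIs in the Tom+ library, whereas the Tom- values of 8.63 (6.29 to 11.5) and 5.64 (2.91 to 9.85), the latter from 12 UMIs, overlapped. Serpina7 went down to the threshold and up beyond it, with 335, 171, 106 and 182 CPM at 0, 4, 5 and 10 or more in the Tom+ library. Cells with more UMIs of the pair are also deeper, and the Tom- class of 10 or more UMIs holds 10 cells. By the position score described below, 74.1% of Tom+ cells with 10 or more UMIs lay at the zone 3 (central vein) end, against 55.7% of Tom+ members. Serpina7 was higher at that end, by a log2 ratio of 4.70 over the zone 1 (portal) end in Tom+ comparison cells. The part of position in the course of these genes was not tested.

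**Figure D3:**
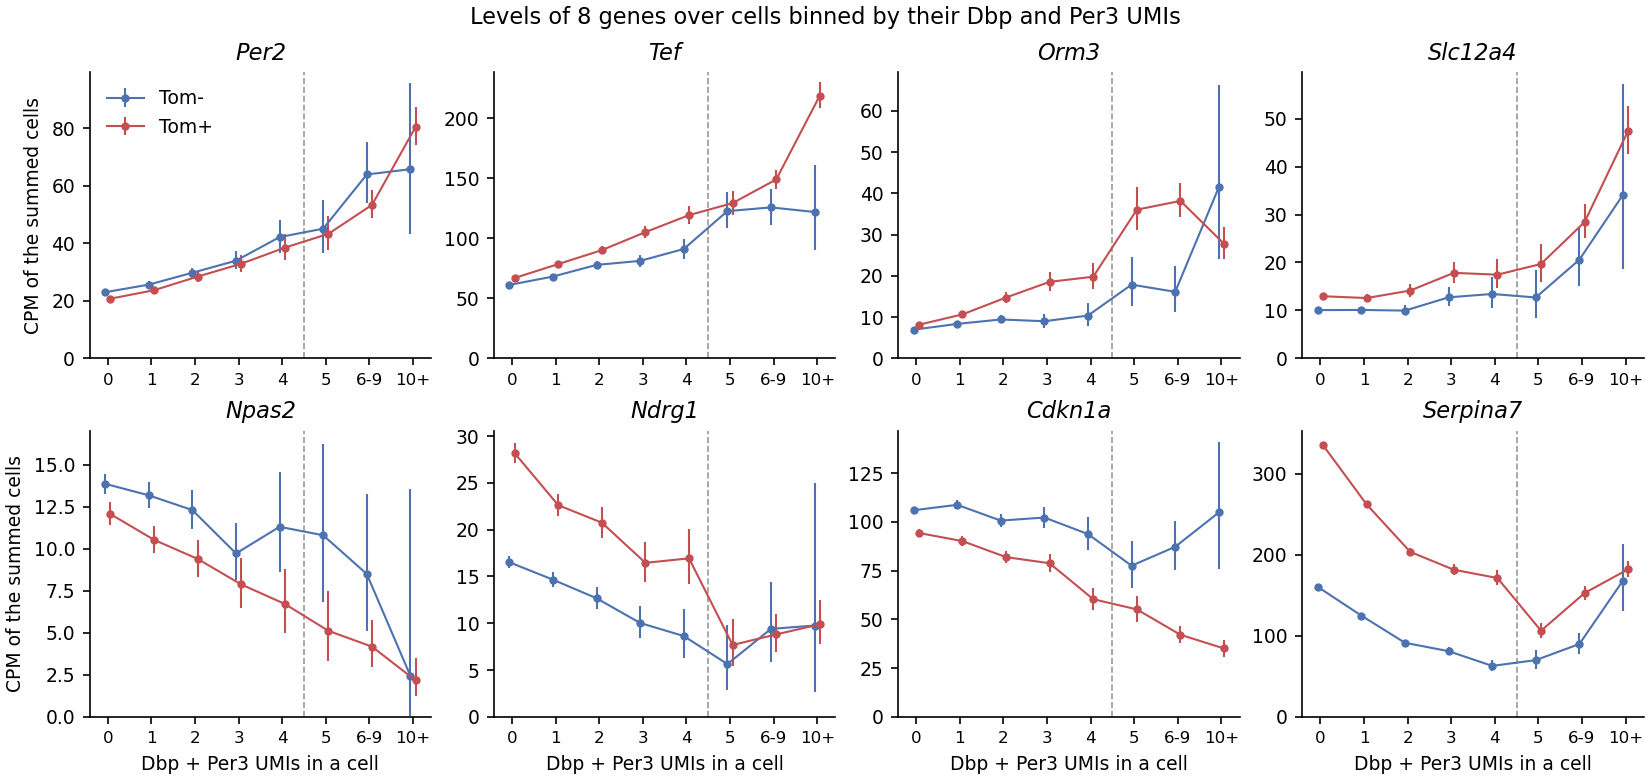
CPM of the summed cells for 8 genes over classes of Dbp and Per3 UMIs per cell (horizontal axis), in the Tom- (blue) and Tom+ (red) library, with 95% Poisson intervals and the threshold of 5 UMIs as a dashed line. Per2 and Tef climb across all classes in the Tom+ library, to 80.6 and 219 CPM, and Npas2 goes down to 2.17 CPM.

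Members were also divided by which gene brought them in. Dbp-led members (at most 1 Per3 UMI) numbered 31 in the Tom- and 100 in the Tom+ library, Per3-led members (at most 1 Dbp UMI) 11 and 49, and those with 2 or more of each 76 and 393. Per2 was above the comparison cells in all of these groups of the Tom+ library, with log2 ratios of 0.97, 1.09 and 1.61 in the order given, and at 1.05, 0.56 and 1.35 in the Tom- library, where the Per3-led group held 17 Per2 UMIs and its interval included 0 (-0.22 to 1.24). Tef was at 1.25, 0.55 and 0.90 in the Tom- and 1.11, 0.76 and 1.32 in the Tom+ library. Orm3 was at 17.1, 39.4 and 16.7 CPM in the Tom- groups, with 19 UMIs in the 11 Per3-led cells, and at 22.9, 38.7 and 36.1 CPM in the Tom+ groups. In the Tom+ library the Orm3 ratios of the Per3-led group (2.09, 1.75 to 2.42) and the group with 2 or more of each (1.99, 1.85 to 2.14) thus overlapped. In the Tom- library those of the Per3-led group (2.41, 1.67 to 3.05) and the group with 2 or more of each (1.16, 0.74 to 1.56) did not. However, 1 Tom- member held 9 of the 91 Orm3 UMIs, and which group it belonged to was not examined. No difference between the Tom- groups is therefore drawn.

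Position along the liver lobule was read from a zone score, the log2 ratio of a cell's summed zone 3 (central vein) to zone 1 (portal) marker UMIs. A UMI was added to each sum, and the score was cut into 3 equal portions over the hepatocytes of both libraries. Tom- members lay at the zone 1 end in 63.6%, in the middle in 22.0% and at the zone 3 end in 14.4%, against 40.8%, 37.6% and 21.7% of comparison cells. Tom+ members lay there in 25.5%, 18.8% and 55.7%, against 17.5%, 29.4% and 53.1%. The middle portion thus held a smaller share of the members than of the comparison cells in both libraries. Within the portions, members were 2.05%, 0.839% and 1.01% of Tom- hepatocytes and 10.4%, 5.40% and 9.14% of Tom+ hepatocytes. Thinned to 20000 UMIs these shares were 0.382%, 0.258% and 0.535%, and 3.02%, 2.06% and 5.45%. Thinning evens the depth and also makes the rule stricter, and which of these moved the shares was not tested. The thinned Tom- shares at the ends rest on 14 and 9 cells, and their intervals overlap. Of the 185 Tom+ cells with 10 or more UMIs, 74.1% lay at the zone 3 end.

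Several clock genes had their largest ratio to the comparison cells at the zone 3 end, and others did not. Per2 had log2 ratios of 0.91, 0.96 and 2.09 from the zone 1 to the zone 3 end in the Tom- and 0.49, 1.14 and 2.11 in the Tom+ library. In Tom+ members the Per2 level was 55.4 CPM at the zone 1 end and 66.8 at the zone 3 end, whereas in comparison cells it was 39.6 and 15.5 CPM. The gradient between the ends seen in comparison cells was therefore not present in members, with log2 ratios between the ends of 0.27 (0.08 to 0.46) and -1.35 (-1.47 to -1.24). Bhlhe40 had -0.10 (-0.21 to 0.01) in members and -1.09 (-1.14 to -1.04) in comparison cells, and Bhlhe41 had -0.55 (-1.21 to 0.11) and -2.77 (-3.29 to -2.28). The members at the ends differ in the values of the rule. Of Tom+ cells with 10 or more UMIs of the pair, 74.1% lay at the zone 3 end, against 55.7% of all Tom+ members. Per2 went up with these UMIs, and the part of the rule in the members' ratios between the ends was not tested. Tef had ratios to comparison cells of 0.75, 1.09 and 1.501 along the portions of the Tom+ library, but Nr1d1 had 0.41, 0.53 and 0.31 and Nfil3 -0.62, -0.39 and -0.67. Nr1d1 was level between the ends in both groups of cells, with -0.04 (-0.16 to 0.08) in members and 0.05 in comparison cells. The Tom- values at the zone 3 end rest on 17 members, with 36 Per2 UMIs.

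Genes outside the zone score differed in their course along the portions. Wee1, a kinase that holds cells before mitosis and a known clock target, was at 3.59 CPM at the zone 1 end and 23.1 at the zone 3 end of Tom+ members and had log2 ratios to comparison cells of 1.21, 1.31 and 1.97 along the portions. Npas2 was lower in Tom+ members of each portion, with -1.42, -1.36 and -1.89. Txnip, level between the ends in comparison cells, had a log2 ratio of the zone 3 to the zone 1 end of 0.89 (0.81 to 0.96) in Tom+ members. The interferon-induced Ifit3 had 1.28 (0.68 to 1.92) in members and -1.43 (-1.58 to -1.29) in comparison cells, with 30.7% of its UMIs in members lying in 1 cell. The limit given for Per2 between the ends holds for these values too.

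**Figure D4:**
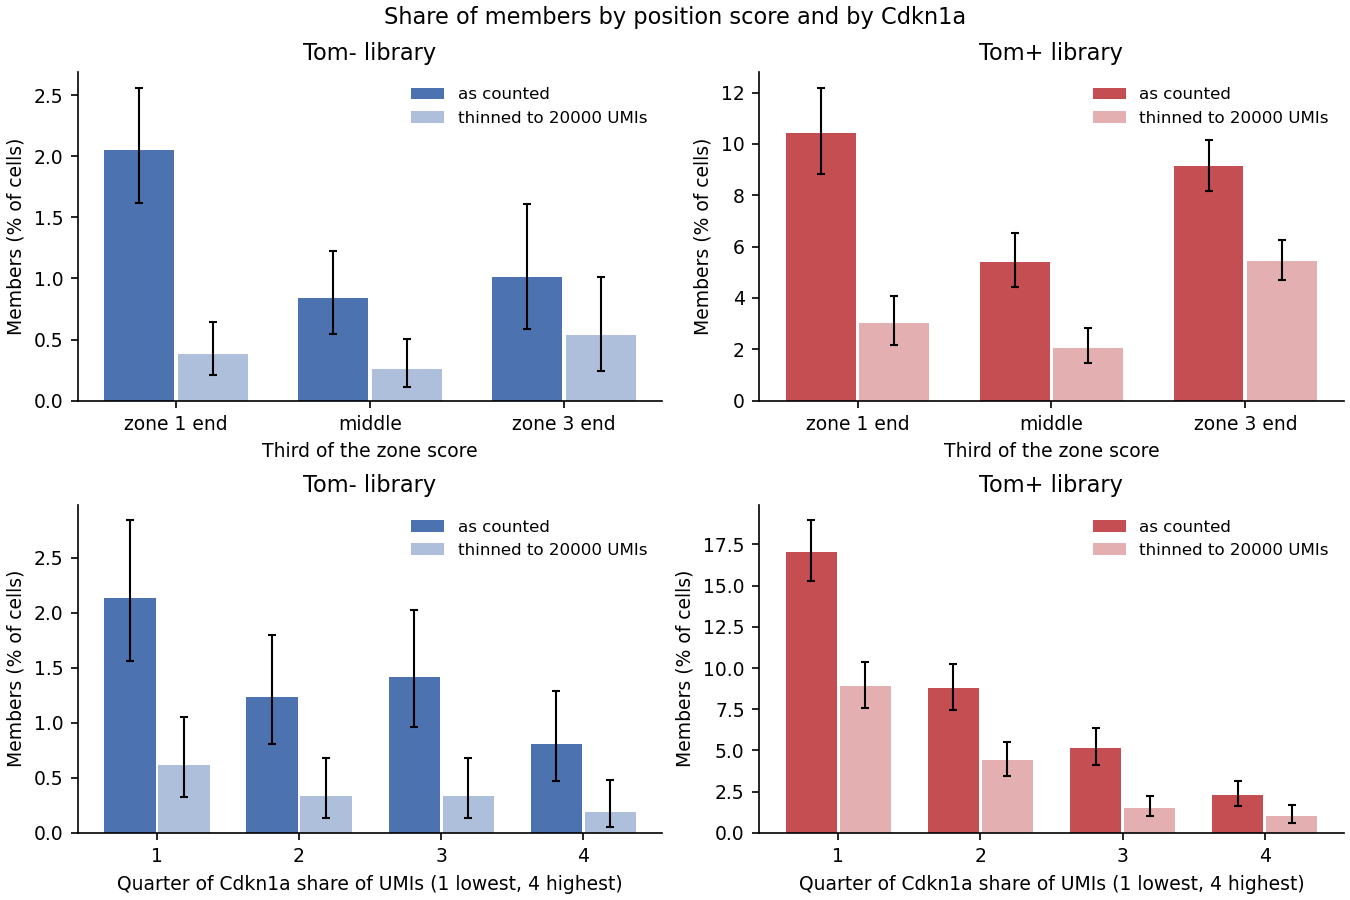
Share of hepatocytes that are members (percent) in 3 equal portions of the zone score (top) and in 4 equal groups by the Cdkn1a share of UMIs (bottom), in the Tom- (left) and Tom+ (right) library, as counted (dark) and with cells thinned to 20000 UMIs (light), with 95% Clopper-Pearson intervals. In the Tom+ library the member share runs from 17.1% in the group with least Cdkn1a to 2.27% in the group with most.

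Cdkn1a and the reporter were examined because the libraries were sorted for p16. Cdkn1a encodes p21, a cell cycle inhibitor. It was at 84.4 CPM in Tom- members and 107 in comparison cells, a log2 ratio of -0.34 (-0.49 to -0.20), and at 42.8 and 92.8 CPM in the Tom+ library, a ratio of -1.12 (-1.22 to -1.02). Over 4 equal groups of hepatocytes ordered by Cdkn1a, members were 17.1%, 8.77%, 5.15% and 2.27% of Tom+ cells, and 8.90%, 4.42%, 1.53% and 1.04% after thinning. In the Tom- library they were 2.13%, 1.23%, 1.42% and 0.805%, where the intervals of neighbouring groups overlapped and those of the lowest (1.56 to 2.84) and highest group (0.470 to 1.29) did not. The lower Cdkn1a held at each position in the Tom+ library, with -1.28, -1.16 and -1.002 from the zone 1 to the zone 3 end.

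The reporter's level differed little between members and comparison cells of a library. tdTomato was at 77.7 CPM in Tom- members and 80.1 in comparison cells, a log2 ratio of -0.04 (-0.20 to 0.10), and at 876 and 932 CPM in the Tom+ library, a ratio of -0.09 (-0.11 to -0.07). By 4 equal groups of tdTomato, members were between 1.09% and 1.75% of Tom- and between 7.06% and 9.51% of Tom+ hepatocytes. Thinned to 20000 UMIs, the shares from the group with least to that with most tdTomato were 0.189%, 0.379%, 0.426% and 0.474% in the Tom- library, from 4 to 10 members each, and 3.87%, 3.07%, 4.05% and 4.91% in the Tom+ library. The group with most tdTomato thus had the highest share after thinning and did not before. The thinned intervals of all groups overlapped in each library, so no order between the groups is drawn. Cdkn2a, the gene of p16Ink4a, had no UMI in Tom- members, where 3 counts correspond to 0.628 CPM, and 52 in their comparison cells (0.220 CPM). In the Tom+ library it had 2 UMIs in members and 30 in comparison cells. A separate custom p16 entry under the same gene identifier had 6 UMIs in Tom- members and 90 in comparison cells (1.72, 0.24 to 2.90) and 16 and 78 in the Tom+ library (0.65, -0.22 to 1.44). These few UMIs under the 2 entries did not point in 1 direction. Cdkn1c, the p57 inhibitor, was lower in Tom- members at 17.0 and 30.5 CPM (-0.85, -1.18 to -0.53), with -0.34 (-0.43 to -0.24) in the Tom+ library. With comparison cells weighted over the portions of the zone score, Cdkn1c was at -0.37 in the Tom- library.

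Genes were then ranked by the smaller of their ratios in the libraries. This is an order by fold, not by likeness to Dbp and Per3. The 12 highest were Orm3, Per2, Chrna4, Fam107a, Ugt1a8, Tef, Selenbp2, Rap1gap, Slc12a4, Fgfr1, Vamp2 and Ppp1r9a. Between the ends of the zone score, Tom+ comparison cells had log2 ratios (zone 3 over zone 1) of -4.19 for Fam107a and -1.87 for Chrna4. Ugt1a8, Fgfr1, Per2 and Orm3 had -1.79 to -1.23, and the other genes of the 12 had -0.27 to 0.94. Members lay more at the zone 1 end than comparison cells, and the part of position in these ratios was not tested. Orm3, an orosomucoid of the acute phase, led with 19.1 and 7.43 CPM in Tom- members and comparison cells (1.36, 1.04 to 1.66) and 34.0 and 9.07 CPM in the Tom+ library (1.91, 1.78 to 2.04). Its highest cell held 9.89% and 3.31% of its UMIs in members. Chrna4, a subunit of the nicotinic acetylcholine receptor, was at 19.1 and 8.49 CPM (1.17, 0.85 to 1.47) and 22.2 and 7.78 CPM (1.51, 1.36 to 1.67). Probes may not fully separate Orm3, Ugt1a8 and Selenbp2 from close relatives, so these levels are uncertain. In the Tom- library Ugt1a8 was at -0.036 with members of 8 or more UMIs and Selenbp2 at -0.15 with cells thinned to 20000 UMIs.

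Other genes of the list had smaller ratios. Fam107a, an actin-binding protein known to respond to stress hormones, had log2 ratios of 1.11 (0.81 to 1.40) and 1.16 (0.94 to 1.36). Slc12a4 had 0.86 (0.53 to 1.17) and 1.36 (1.24 to 1.49), and Fgfr1, a receptor of fibroblast growth factors, 0.78 (0.44 to 1.10) and 1.00 (0.84 to 1.17). Vamp2, a vesicle fusion protein, had 0.89 (0.60 to 1.16) and 0.75 (0.63 to 0.87). Ppp1r9a, a scaffold of protein phosphatase, had 0.72 (0.37 to 1.06) and 1.29 (1.17 to 1.42). Rap1gap, which switches off the GTPase Rap1, had 0.85 (0.44 to 1.24) and 0.97 (0.75 to 1.18). Of the 12 genes 9 had a promoter window, and 3 of these held an E-box (Tef, Rap1gap and Ppp1r9a), beside 8.09% of all genes with a window. These 3 genes each have more than 1 window, and the small count is a description only.

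The 12 genes lowest in both libraries were Ndrg1, Cyp3a44, Lpl, Serpina7, Avpr1a, Npas2, Cyp2c69, Enho, Slc22a7, Spon2, Cyp2a22 and Lrp5. Ndrg1, a gene that responds to hypoxia and stress, was at 7.75 and 15.8 CPM in the Tom- library (-1.03, -1.54 to -0.57) and at 8.91 and 26.1 in the Tom+ library (-1.55, -1.77 to -1.34). Cyp3a44, a cytochrome P450, was at 26.4 and 45.2 CPM (-0.78, -1.04 to -0.52) and at 18.4 and 57.3 CPM (-1.64, -1.79 to -1.49). Serpina7, the thyroxine-binding globulin, was at 87.8 and 148 CPM (-0.75, -0.89 to -0.61) and at 152 and 308 CPM (-1.02, -1.07 to -0.97). With comparison cells weighted to the members over the portions of the zone score, Serpina7 was at -0.18, Avpr1a at -0.31 and Ndrg1 at -0.57 in the Tom- library. With that weighting 7 Tom- genes were lower, against 19 without it. Between the ends of the score, Tom+ comparison cells had a log2 ratio (zone 3 over zone 1) of 4.70 for Serpina7. Ndrg1 had 3.12, Lpl and Cyp2a22 2.70, and Avpr1a, Spon2, Enho and Lrp5 2.22 to 1.37. Cyp3a44, Slc22a7, Cyp2c69 and Npas2 had 0.88 to -0.20. Tom- members lay less at the zone 3 end than comparison cells. The part of position in the members' ratios was not tested further.

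Others of the 12 ranged from a lipase to receptors. Lpl, the lipoprotein lipase, had log2 ratios of -0.76 (-1.08 to -0.45) and -1.16 (-1.31 to -1.02). Avpr1a, the vasopressin receptor of hepatocytes and a rhythmic liver gene, had -0.61 (-0.91 to -0.31) and -1.09 (-1.23 to -0.95). Enho, which encodes the peptide adropin, had -0.54 (-1.06 to -0.07) and -0.85 (-1.07 to -0.63). Lrp5, a coreceptor of Wnt ligands, had the smallest difference, with -0.47 (-0.62 to -0.32) and -0.47 (-0.53 to -0.40). Of the 12 genes 6 had a promoter window and none held any of the motifs, and an E-box is held by 8.09% of all genes with a window. With so few genes, no difference from the highest genes is drawn.

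Both libraries were compared gene by gene over the 7833 genes compared in each. Pearson's r of the log2 ratios was 0.50 and Spearman's rho 0.48, across genes, which are not independent. Of the genes counted as higher, 27 were higher in both, which is 36.5% of the 74 Tom- and 25.2% of the 107 Tom+ genes, and 69 of the 74 had a ratio above 0 in the Tom+ library, as did 6354 of all 8053 genes compared there. In turn 101 of the 107 had a ratio above 0 in the Tom- library, as did 5625 of all 7946 genes compared there. Of all genes 1.15% were higher in the Tom- and 1.75% in the Tom+ library. Of the lower genes, 5 were shared, which is 26.3% of 19 and 17.2% of 29, beside 0.239% and 0.385% of all genes. Of the 19, 11 had a ratio below 0 in the Tom+ library, and of the 29, 22 did in the Tom- library, while most of all genes compared lay above 0 in each library. Members and comparison cells differ in depth the same way in both libraries, and what this adds to the correlation was not tested.

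**Figure D5:**
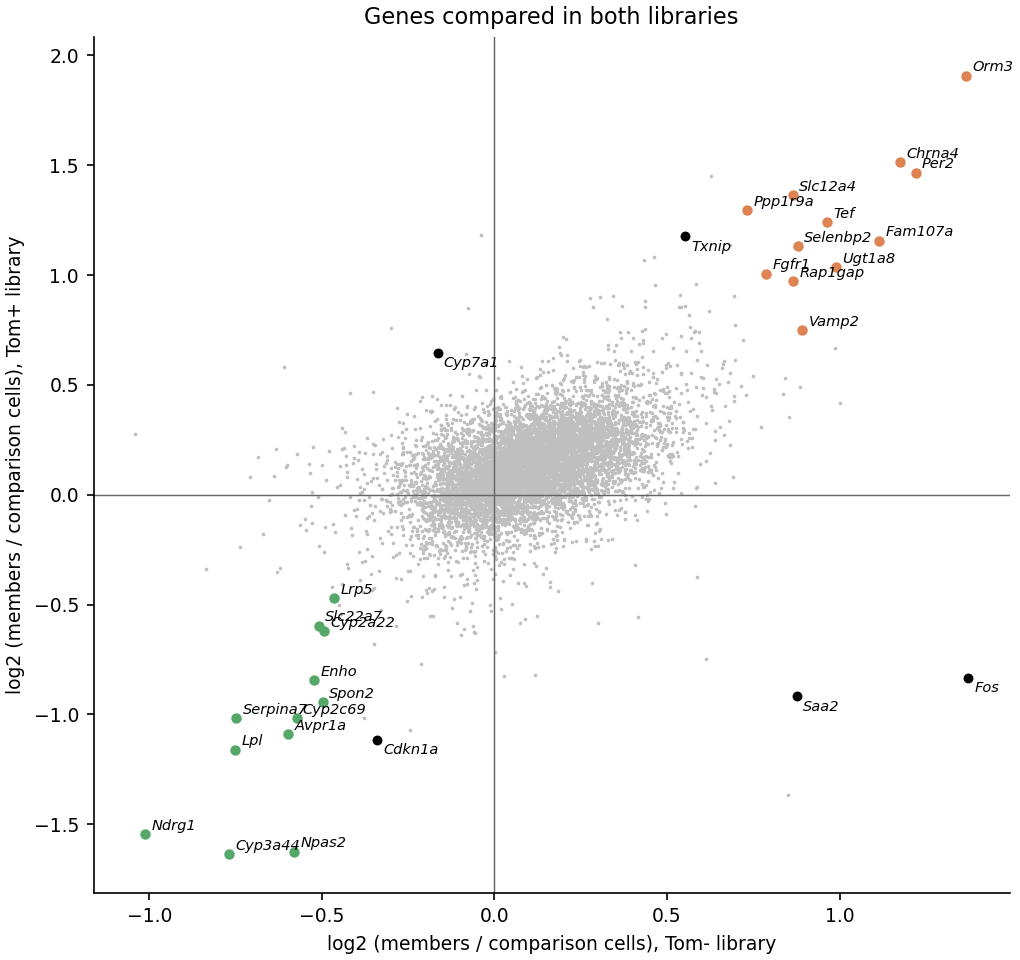
Log2 ratio of summed CPM with 0.5 UMIs added, members over comparison cells, in the Tom- (horizontal) and Tom+ (vertical) library for 7833 genes, with the 12 highest (orange) and 12 lowest (green) genes in both and 5 other genes named in the text (black). Per2 lies at 1.22 and 1.47, Ndrg1 at -1.01 and -1.55, and Fos and Saa2 are higher in Tom- and lower in Tom+ members.

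Known rhythmic liver genes other than the core clock formed a list of 23. In the Tom- library 1 of 20 compared was higher (Mfsd2a) and 1 lower (Avpr1a), with a median of 0.01, and in the Tom+ library 6 of 21 were higher and 2 lower (Avpr1a and Dtx4), with a median of 0.38. Of all genes 1.75% were higher and 0.385% lower in the Tom+ library, with a median of 0.14. Wee1 had the largest ratio in the Tom+ library, at 14.6 and 4.16 CPM (1.81, 1.61 to 2.01), and was at 5.03 and 2.45 CPM in the Tom- library. The other 5 higher genes had ratios between 0.59 and 0.65, and they were Cyp7a1, the rate-limiting enzyme of bile acid synthesis (804 and 513 CPM), Usp2, a deubiquitinase (90.8 and 59.6 CPM), Rgs16, a regulator of G protein signalling (384 and 252 CPM), Gys2, the liver glycogen synthase (87.8 and 58.4 CPM), and Coq10b of the ubiquinone pathway (69.9 and 46.5 CPM). These 5 lay just past 1.5-fold, and under median-of-ratios scaling, where Cyp7a1 was at 0.51, Usp2 and Rgs16 at 0.47 and Gys2 and Coq10b at 0.45, none of them did, while Wee1 was at 1.68. In the Tom- library the same 5 genes had ratios of -0.17 for Cyp7a1, 0.14 for Usp2, 0.15 for Rgs16, 0.50 for Gys2 and 0.38 for Coq10b. Mfsd2a, a lipid transporter, was at 92.0 and 57.4 CPM (0.68) and at 41.0 and 35.1 CPM (0.22).

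Metabolic genes of the fed and fasted state were described as lists. Over all genes, 1.15% (Tom-) and 1.75% (Tom+) were higher and 0.239% and 0.385% lower, which stands beside each count of this paragraph. With so few genes, nothing particular to these lists is drawn from the counts. Fasting genes had medians of 0.11 in the Tom- and -0.11 in the Tom+ library and feeding genes 0.20 and 0.35, beside 0.10 and 0.14 for all genes. None of 11 fasting genes and none of 9 feeding genes was past 1.5-fold in the Tom- library. In the Tom+ library 1 fasting gene was lower, the insulin-suppressed binding protein Igfbp1 at 1517 and 2358 CPM (-0.64), and 1 feeding gene was higher, the lipogenic factor Thrsp at 1069 and 679.5 CPM (0.65). Thrsp was at 940 and 683 CPM in the Tom- library (0.46). Of 9 genes that respond to glucocorticoids, Cdkn1a alone was past 1.5-fold, in the Tom+ library, and Fkbp5 was at 0.22 (0.13 to 0.30) and 0.35 (0.30 to 0.39). Of 8 temperature-responsive genes, Hspa1b alone was past it, at 35.6 and 63.0 CPM in the Tom+ library (-0.83), and the cold-inducible Cirbp and Rbm3 were at 0.34 and 0.32 there and 0.12 and 0.13 in the Tom- library.

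The zone markers are the genes of the zone score, so they repeat the positions given above. Of 14 zone 1 markers, 2 were higher in the Tom- library (Sds and Etnppl, 0.59 and 0.64) and 2 in the Tom+ library (Sds and Cyp2f2, 0.61 and 1.08). Zone 3 markers had medians of -0.26 and 0.14, and 1 was higher in each library, Slc1a2 in the Tom- library (50.9 and 33.7 CPM, 0.60) and Glul in the Tom+ library (213 and 127 CPM, 0.75). In Tom- members 23.9% of the Slc1a2 UMIs lay in 1 cell. The Slc1a2 ratio was -0.73 with cells chosen by Per3 alone, at a lower minimum of UMIs. In the Tom- library Glul was at 0.42, with 21.5% of its UMIs in 1 cell, and at 0.08 without that cell.

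Txnip, an inhibitor of thioredoxin that responds to glucose, was higher in members of the Tom+ library, at 480 and 212 CPM (1.18, 1.15 to 1.21), with 340 and 232 CPM in the Tom- library (0.55, 0.48 to 0.62). Among 12 carboxylesterases, 3 were higher in the Tom+ library (Ces2c 1.18, Ces3b 0.91 and Ces1b 0.85) and none in the Tom- library, where these genes had -0.05, 0.54 and 0.43. The list's median was 0.18 in the Tom+ and -0.05 in the Tom- library, beside 0.14 and 0.10 for all genes, of which 1.75% and 1.15% were higher. Of 11 sex-biased and growth hormone genes, Cux2 was higher in Tom- members (0.66) and Cyp2d9 (1.07) and Cish (0.90) in Tom+ members. Carboxylesterases and P450 genes have close relatives, and reads of one may be counted for another.

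Cholesterol synthesis (19 genes), p53 targets (10) and NRF2 targets (10) had no gene past 1.5-fold in either library. Their medians were 0.01 and 0.07, 0.19 and 0.03, and -0.11 and 0.24, beside 0.10 and 0.14 for all genes. Of all genes 1.15% (Tom-) and 1.75% (Tom+) were higher and 0.239% and 0.385% lower, shares that stand beside each count of this paragraph. Of 16 acute-phase genes Orm3 alone was higher in both libraries, and the medians were 0.05 and -0.19. Saa1, Saa2 and Saa3 were lower in the Tom+ library, at -0.82, -0.92 and -0.75, while 67.2% of the Saa2 and 70.5% of the Saa3 UMIs of Tom- members lay in 1 cell. Interferon response genes had medians of -0.13 and -0.21, with Rsad2 and Ifit3 lower in the Tom- library. Of 8 immediate early genes 2 were higher in the Tom- library, beside 1.15% of all genes. They were Fos at 1.37 and Junb, at the limit, at 0.58, and 84.5% of the Fos UMIs of Tom- members lay in 5 cells. Of 9 in the Tom+ library, Myc was higher at 0.64 and Fos lower at -0.84. None was past 1.5-fold in either library among the 4 of 5 zone 2 markers, 3 of 10 LIFR ligands and receptors and 2 of 15 cell cycle genes that passed the minimum level.

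Cell-to-cell variation among members was measured by the variance over the mean. After thinning to 20000 UMIs, the variance over the mean among Tom- members was highest for Alb (136), Saa2 (121), Cyp2c29 (58.1), Saa1 (56.6), Cxcl9 (46.8), Cyp2e1 (34.9), Hpx (32.8), Saa3 (31.5), Apoe (31.3) and Scd1 (26.3). Among Tom+ members it was highest for Dmbt1 (396), of which 1057 of 1059 UMIs lay in the bile duct cell described above, and then for Alb (207), Cyp2c29 (62.5), Ass1 (52.5), Hpx (34.9), Pck1 (34.8), Apoe (31.8), Sds (31.3), Scd1 (31.2) and Ttr (29.8). In Tom- members 67.2% of the Saa2, 70.5% of the Saa3 and 78.3% of the Cxcl9 UMIs lay in 1 cell. This ratio grows with the level of a gene, so no order between genes of different level is drawn from it. Per2 had 1.68 and 1.61 and Tef 1.42 and 1.60 in members, against 1.28 and 1.26, and 1.195 and 1.27, in comparison cells. Both genes also had higher means in members, so no difference in variation is drawn from these values. Cdkn1a had 2.56 and 4.20 in members and 1.66 and 2.13 in comparison cells. The highest member held 17 Cdkn1a UMIs at a mean of 1.80 in the Tom- library and 34 at a mean of 0.88 in the Tom+ library. A single cell can raise the ratio this way, so no difference in variation is drawn for Cdkn1a either.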

How the data were processed

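Single-cell RNA profiles were made by the authors with a probe-based kit (10x Flex) that counts UMIs. Per the labels and methods, Cell Ranger 7.2.0 and mm10 were used, and the deposited matrices hold whole-number UMI counts for 19073 features, 3 of them custom (tdTomato, L1Md_A and a separate p16 entry). The libraries held 681279005 (Tom-) and 715333889 (Tom+) UMIs over 23220 and 16339 barcodes. No doublet caller was run here, so doublets within the UMI window remain. Gene models were GENCODE M21.

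From these counts, UMIs were summed over members and over comparison cells of each library, without Dbp and Per3, and given as CPM. Intervals were exact Poisson (levels), exact conditional (ratios) and Clopper-Pearson (shares), at 95%, and cover counting error only. A count of 3 in members corresponds to 0.628 (Tom-) and 0.141 CPM (Tom+). Ratios used for the 1.5-fold counts had 0.5 UMIs added. Printed ratios had none. Genes were named where the smaller (or larger) of both ratios was among the 12 highest (or lowest), where a list of 29 held them, or as the 10 most variable. The members and the lists were chosen with earlier results of these data known. The settings tried were 15, and 1 was added after seeing the data. The calculation was tested on simulated sums with Poisson counts. Such sums lack the variation between cells seen in these libraries, so the test covers counting error only. Python 3.11.15, numpy 2.4.6, scipy 1.17.1, pandas 2.3.3 and matplotlib 3.10.9 were used. A further clock gene is not reported here. With 1 library per group no test across samples was made.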

Additional observations from a re-analysis of the deposited data

Results flagged for a closer look

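Some genes had opposite directions in the libraries, and these differences between single libraries were not tested. Cyp7a1 had a log2 ratio of members to comparison cells of -0.17 in the Tom- and 0.65 in the Tom+ library. Within the portions of the zone score it was above 0 in each library, at 0.26, 0.29 and 0.59 from the zone 1 to the zone 3 end in the Tom- library and at 0.05, 0.59 and 0.70 in the Tom+ library. Fos had 1.37 and -0.84, and in Tom- members 26.9% of its UMIs lay in 1 cell and the ratio was 0.93 without it.

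The serum amyloid genes also pointed in opposite directions. Saa1 had log2 ratios of 0.12 and -0.82, Saa2 0.88 and -0.92, and Saa3 0.61 and -0.75. Without the cell holding most of each gene's UMIs, the Tom- values were -0.34 for Saa1, -0.72 for Saa2 and -1.14 for Saa3. Rsad2, an interferon-induced gene, had -1.07 and 0.27, and the Tom+ value was -1.004 without the 1 cell that held 58.9% of its UMIs.

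The custom features lie outside the comparisons above. L1Md_A, a family of transposable elements, had log2 ratios of 0.27 (3494 and 2906 CPM) and 0.33 (4257 and 3398 CPM). The separate p16 entry, ENSMUSG00000044303_p16, had 1.72 (0.24 to 2.90) in the Tom- library, from 6 UMIs in members and 90 in comparison cells, and 0.65 (-0.22 to 1.44) in the Tom+ library, from 16 and 78 UMIs.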

How the results depend on the processing

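The share of members depended on the definition, and in each setting below it was higher in the Tom+ library. It was 1.06% (Tom-) and 7.36% (Tom+) between 25000 and 40000 UMIs, 2.97% and 11.4% at 4 or more UMIs, 0.249% and 4.31% at 8 or more, 0.367% and 3.97% with cells thinned to 20000 UMIs, 0.900% and 5.92% by Dbp alone, and 2.19% and 7.53% by Per3 alone. Counts of genes 1.5-fold higher and lower were 492 and 95 (Tom-) and 268 and 50 (Tom+) between 25000 and 40000 UMIs, 797 and 206 and 297 and 51 at 8 or more UMIs, 1647 and 216 and 500 and 67 after thinning, 1387 and 561 and 1071 and 299 with no minimum CPM, 16 and 2 and 53 and 12 at 50 CPM, and 43 and 42 and 66 and 57 under median-of-ratios scaling. In the Tom- library they were 153 and 44 with Ptprc, Pecam1 and Dcn at 0 UMIs. At 4 or more UMIs they were 32 higher in the Tom- library and 88 and 20 in the Tom+ library. The other Tom- counts that moved were 31 lower against cells with 0 UMIs, 141 higher at matched depths, 180 higher by Dbp alone, 21 higher by Per3 alone and 7 lower with comparison cells weighted over the zone score. Fewer members entered at 8 or more UMIs and after thinning (31 Tom- cells), and for the other settings the cause was not tested.

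A reversal is a sign opposite to that of a value at least 1.5-fold from the comparison cells, and all 12 were in the Tom- library. Saa2 and Saa3 were at -0.47 and -1.12 between 25000 and 40000 UMIs, at -0.997 and -0.74 at 8 or more UMIs and at -0.46 and -0.41 after thinning. Ugt1a8 was at -0.036 at 8 or more UMIs and Selenbp2 at -0.15 after thinning. By Per3 alone Slc1a2 was at -0.73, Saa2 at -0.094 and Spp1 at -1.13, and Spp1 was at -0.41 without cells with 3 or more UMIs of Krt7, Krt19 and Epcam, a setting chosen after seeing the data. Of the 12 highest genes 10 (Tom-) and 12 (Tom+) kept their sign in every alternative, as did all 12 lowest genes in both libraries and 8 and 9 of 9 clock repressors, Cry1 being the Tom- exception, at 0.32 between 25000 and 40000 UMIs against -0.09. Per2 ranged from 0.73 to 2.05 (Tom-) and from 1.32 to 1.73 (Tom+). Among shares and counts 34 stayed and 46 moved, and of the others 5462 stayed and 2566 moved. No paired analysis was possible because only 1 library stands for a group.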

Other observations

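A few genes outside the rule for naming had large ratios in the Tom+ library, and they were chosen after their values were seen. Whether their ratios differ between the libraries was not tested. S100g, a calcium-binding protein, was at 1.60 CPM in Tom+ members and 11.5 in comparison cells (log2 ratio -2.85, -3.38 to -2.36), and at 5.87 and 6.25 CPM in the Tom- library (-0.09, -0.69 to 0.45). In Tom- members 42.9% of the S100g UMIs lay in 1 cell, and the ratio without it was -0.88 (-1.695 to -0.18). Cpe, carboxypeptidase E, was at 12.7 and 4.18 CPM (1.60, 1.39 to 1.80) and was present at 20000 UMIs in 15.5% of Tom+ members and 5.48% of comparison cells, while in the Tom- library it was at 1.47 and 0.698 CPM (1.07, -0.27 to 2.15), from 7 UMIs in members. Cpsf4l was at 10.04 and 2.90 CPM (1.79, 1.55 to 2.03), and at 2.72 and 2.02 CPM in the Tom- library (0.43, -0.49 to 1.22). Mfge8, a secreted glycoprotein that bridges dying cells to phagocytes, was at 32.0 and 11.7 CPM (1.45, 1.32 to 1.58) and at 13.8 and 9.01 CPM in the Tom- library (0.62, 0.24 to 0.97).

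Members of the libraries were also set side by side, with comparison cells as the background. Npas2 was lower in Tom+ than in Tom- members by a log2 ratio of -1.28 (-1.84 to -0.71), with -0.25 between the comparison cells, and Cdkn1a by -0.98 (-1.15 to -0.81), with -0.21. Tef had 0.44 (0.32 to 0.57) and 0.16. Per2 had 0.12 (-0.08 to 0.31) in members and -0.13 in comparison cells. Tom+ members carried more Dbp and Per3 UMIs and lay more at the zone 3 end than Tom- members, and the part of either in these values was not tested.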
